A study of Mus musculus with 24 samples.

Results

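Cytosolic ribosomal proteins are the protein parts of the 2 subunits that translate mRNA outside the mitochondria. Their 80 genes, as measured in mouse liver by RNA-seq, are described here by time of day and genotype. A gene was taken when its name had the form of a cytosolic ribosomal protein (Rpl or Rps with a number, Rplp0 to Rplp2, or Rpsa) and its mean over all 24 libraries was at least 1 FPKM. FPKM (fragments scaled to the length of the transcript and relative to the mapped fragments of the library) is a level corrected for transcript length. Of 54733 genes in the files, 84 had such a name and 80 reached the limit. These 80 were among 11244 genes of any name that reached it. The members were thus selected on their mean level, which is given as a description. The member just inside was Rpl6l at 7.74 FPKM. Just outside were Rpl32l at 0.268 FPKM, Rpl3l at 0.0294 FPKM, Rpl39l at 0.00516 FPKM, and Rpl10l, which was listed at 0 FPKM.

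The rule was meant to take no pseudogenes, but the annotation goes against it for 2 members. In GENCODE M21, Rpl6l (ENSMUSG00000091086) is a processed pseudogene and Rps4l (ENSMUSG00000063171) a transcribed processed pseudogene, each with a single exon. The other 78 members are protein-coding. Counts by the study's criteria for rhythm and by libraries that do not overlap are given with and without them where they differ. By name, 32 members belong to the small (40S) and 48 to the large (60S) subunit. A few proteins of the ribosome have other names (such as Fau and Rack1) and were kept apart as a comparison.

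The livers came from male C57BL/6 mice of 2 genotypes, WT and ΔRRE (dRRE in the labels). ΔRRE mice are homozygous for a deletion of the ROR response elements in the 5′ untranslated region of the clock gene Bmal1, made by genome editing, and the animals used were from 1 mutant line with WT littermates as controls. The mice were kept in constant darkness, and livers were taken at circadian time (CT) 2, 6, 10, 14, 18 and 22 h, with 2 libraries per genotype and time, no other treatment and no age in the labels. Because each group holds 2 libraries, the p-values of the fits below rest on a spread estimated from these samples over all groups. That spread was moderated across genes, and in the genotype and rhythm fits it also holds departures from the fitted model.

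Ribosomal protein genes are transcribed at high rates in nearly every cell and are used as reference genes on the understanding that their mRNAs change little. Many of their mRNAs start with a short tract of pyrimidines, the 5′ terminal oligopyrimidine (TOP) motif, through which mTORC1 and LARP1 set their translation in response to nutrients. In liver, translation of TOP mRNAs is known to follow feeding and the clock, and that layer cannot be seen in poly(A) RNA levels. Assembly needs the proteins in fixed proportions, and unassembled Rpl5 and Rpl11 are known to bind MDM2.

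The tract is a sequence feature known for many of these mRNAs, so start sites are shown for a few members, picked by hand. The RefSeq table of promoters (GRCm38.p6) held 69 start sites of 58 members, and 22 members had no entry. Among these starts, 13 (18.8%) had a C as the first transcribed base followed by 4 pyrimidines, against 2.51% of all 32851 starts in the table. A run of 8 or more pyrimidines within 20 bases of the start was found at 30 of 69 starts (43.5%), against 16% of all starts. The following 30 bases each run 5′ to 3′ on the coding strand, with the first transcribed base at position 16 and runs of at least 5 pyrimidines in capitals. The first 5 begin transcription in such a run, in Rpl13a the run lies just downstream, and Rplp0 and Rps15 have none at the annotated start. Annotated starts can differ: that of Rps15 is base 80292431 here and 80292453 in GENCODE M21.
Rps6, chr4:86857353-86857382, minus strand: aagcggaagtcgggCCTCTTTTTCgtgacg
Rps18, chr17:33955651-33955680, minus strand: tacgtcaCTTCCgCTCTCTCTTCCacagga
Rps27, chr3:90213634-90213663, minus strand: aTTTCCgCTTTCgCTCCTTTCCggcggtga
Rps10, chr17:27635230-27635259, minus strand: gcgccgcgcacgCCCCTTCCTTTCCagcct
Rps15a, chr7:118116133-118116162, minus strand: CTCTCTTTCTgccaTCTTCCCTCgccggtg
Rpl13a, chr7:45128731-45128760, minus strand: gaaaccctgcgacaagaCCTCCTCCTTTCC
Rplp0, chr5:115559452-115559481, plus strand: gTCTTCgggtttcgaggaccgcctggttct
Rps15, chr10:80292416-80292445, plus strand: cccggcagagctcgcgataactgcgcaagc

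In the 300 bases around each start (250 before and 50 after), searched on both strands, GGAAGT, a core of ETS-family sites, occurred at 34 of the 69 member starts (49.3%) and at 23.8% of all starts. The E-box CACGTG, to which BMAL1 and CLOCK bind, occurred at 8 member starts (11.6%) and 7.15% of all starts. AGGTCA, the core of a ROR response element, was found at 7 (10.1%) and 16.3%, and the TATA-box form TATAAA at 6 (8.70%) and 13.6%. No motif contains another, and a match describes the sequence only.

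The members lie on 19 chromosomes, with 14 of them on chromosome 7 and 4 on X. Processed copies of ribosomal protein mRNAs are spread through the genome, and this touches how well reads can be placed. Of the 80 members, 79 shared at least 1 stretch of 50 bases with an annotated transcript of another gene, and 32 shared over 50% of their stretches (median 43.9%). Rps27 shared 98.6%. At 1 FPKM or more on average, the files also list 69 genes with a ribosomal protein name ending in "-ps". Values of members with close copies are therefore uncertain, since the assignment of shared reads is not known here.

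Checks of the libraries concern the whole series. Bmal1, listed as Arntl, was read first as a check of the labels. In WT it ran from 0.0919 and 0.195 FPKM at CT10 to 12.6 and 13.2 FPKM at CT2, and in ΔRRE every library lay between 2.1 and 4.21 FPKM. Hepatocyte markers were abundant (10 of 10 genes above 1 FPKM, summed level 38479 to 55525 FPKM over the 24 libraries). Total FPKM was 554170 to 624746 per library, and the number of reads behind a value is not given, so no counting error is stated. Between any 2 libraries, at most 0.0380% of values were identical.

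The most abundant members were Rplp1 (an acidic stalk protein) at 508 ± 49.1 FPKM (SD, n = 24), Rps2 at 467 ± 49.4 FPKM, Rps15 at 302 ± 33.0 FPKM, Rpl13a at 301 ± 39.5 FPKM and Rpl4 at 301 ± 24.8 FPKM. Rplp1 and Rps2 overlapped in their ranges (401 to 638 and 375 to 567 FPKM), and so did Rps15, Rpl13a and Rpl4. Most members sat close together: 65 of 80 had a mean between 100 and 320 FPKM, and the median was 165 FPKM, against 6.74 FPKM for all genes tested. Small- and large-subunit genes had medians of 173 and 149 FPKM.

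At the low end were Rpl18 (44.5 ± 5.58 FPKM, SD, n = 24), Rps20 (25 ± 3.29 FPKM), Rps4l (20.9 ± 6.95 FPKM), Rps15a (11.2 ± 1.59 FPKM) and Rpl6l (7.74 ± 1.17 FPKM). Rps4l and Rpl6l are the annotated pseudogenes. For the other 3, lengths are those of 1 annotated transcript per gene, chosen by principal tag and then by coding length. They are 2989, 3706 and 5179 bases, against a median of 882 bases over the members. FPKM divides by length, and whether this set their levels was not tested. Paralog pairs differed in balance. Rps27l and Rps27 were near each other (mean ratio 1.11 ± 0.199, SD, n = 24 libraries, higher for Rps27l in 15), Rpl36al exceeded Rpl36a in all 24 libraries (2.03 ± 0.258), and Rps4l reached 0.0924 ± 0.0313 of the X-linked Rps4x.

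**Figure D1:**
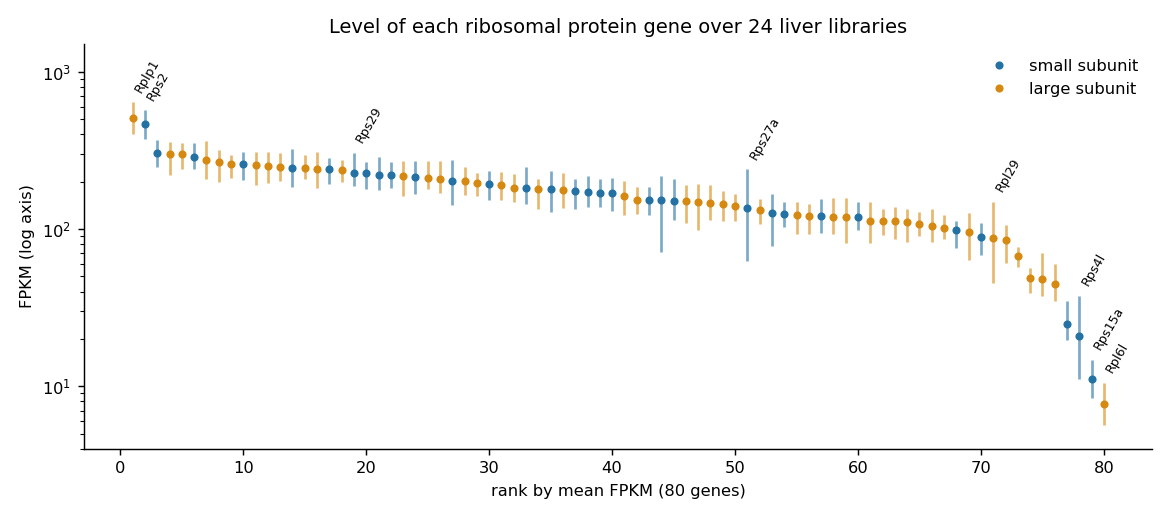
Mean level of each of the 80 ribosomal protein genes over 24 liver libraries (points; FPKM, log axis), ordered by rank, with vertical lines from the lowest to the highest library; colours mark the subunit. Most genes form a plateau between 100 and 320 FPKM, Rps27a and Rpl29 have long lines, and Rps15a and Rpl6l lie lowest.

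Variation between libraries was small for most members. The coefficient of variation over the 24 libraries had a median of 11.0% and was under 20% for 75 of 80. Rpl35a (7.30%), Rpl8 (7.93%) and Rpl4 (8.25%) varied least, of which the first 2 are named after their values were seen. Rpl29 (36.9%), Rps27a (33.9%, a fusion of ubiquitin to a small-subunit protein), Rps4l (33.3%), Rps10 (25.5%) and Rps25 (21.4%) varied most.

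Rps29, a small-subunit protein, is the reference gene of the study's quantitative PCR. In WT it measured 189 to 253 FPKM (median 224, n = 12) and in ΔRRE 187 to 305 FPKM (median 214, n = 12). The groups overlapped throughout. By time, its WT values were 236 and 217 FPKM at CT2, 234 and 189 at CT6, 243 and 223 at CT10, 253 and 206 at CT14, 248 and 225 at CT18, and 189 and 211 at CT22. The ΔRRE values in the same order were 274 and 192, 266 and 187, 259 and 206, 305 and 211, 254 and 218, and 200 and 204 FPKM. In both genotypes the gap between 2 replicates was in several pairs wider than the whole range of the time-point means. Its genotype difference was 0.043 on the log2 scale (95% interval −0.12 to 0.20). In an exact two-sided permutation test over all 46656 ways of splitting the libraries within the time points into 2 and 2, the p was 0.584. Its coefficient of variation (13.5%) ranked 65th of 80 from the least variable, and neither genotype passed the test for rhythm (adjusted p = 0.707 in WT and 0.748 in ΔRRE, limma).

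Whether the members cycled over the day was asked with a cosine and sine of 24 h fitted to log2(FPKM + 0.1) by limma across all 11244 genes. No member passed an adjusted p of 0.05 in WT (0 of 80, background 10.3% of all genes) or in ΔRRE (0 of 80, background 4.57%). At an unadjusted p under 0.05 there were 5 members in WT (background 27.6%) and 1 in ΔRRE (background 22.6%). Fitted over both genotypes together, 0 members passed (background 18.7%), with 4 at an unadjusted p under 0.05 (background 32.9%). These shares of members all lay under those of all genes. The fitted waves were shallow: the median amplitude of the members was 0.10 in WT and 0.081 in ΔRRE on the log2 scale, against 0.198 and 0.188 for all genes. Amplitudes, and the ranges below, also grow with the spread between libraries. That spread was lower for the members: the median standard error of the genotype difference was 0.065, against 0.099 for all genes. Members were not compared with genes of like level.

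The same held for raw ranges. The highest time-point mean of a member exceeded its lowest by a median of 1.23 times in WT and 1.18 times in ΔRRE, against 1.49 and 1.5 times for all genes. A ratio over 1.5 was reached by 3 members in WT and 5 in ΔRRE, against 48.9% and 49.5% of all genes. With the study's 3 criteria (a rhythm p under 0.3, here the harmonic p in place of BIO_CYCLE, a highest mean over 1.5 times the lowest, and a largest SD within 1.5 times their difference), 2 members were rhythmic in WT (background 37.0%) and 4 in ΔRRE (background 35.4%). Without the annotated pseudogenes these counts were 1 and 3.

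Of the 5 members that met them in either genotype, 4 were the members with the highest coefficients of variation. Rps4l met them in both genotypes, Rps27a in WT, and Rps10, Rps27 and Rpl29 in ΔRRE. For Rps27a the WT libraries read 154 and 85.0 FPKM at CT2, 156 and 178 at CT6, 136 and 151 at CT10, 129 and 185 at CT14, 82.1 and 126 at CT18, and 62.9 and 157 at CT22. Its lowest and one of its higher WT values thus came from the same time point. For Rpl29 in ΔRRE the libraries read 133 and 110 FPKM at CT2, 126 and 61.3 at CT6, 76.9 and 126 at CT10, 50.7 and 78.2 at CT14, 82 and 75.5 at CT18, and 134 and 64.5 at CT22. Replicates of Rpl29 differed by about as much as its time points.

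The smallest p for a joint rhythm belonged to Rps27 (adjusted p = 0.0794, limma). In WT it was 174 and 179 FPKM at CT2, 219 and 142 at CT6, 219 and 238 at CT10, 239 and 202 at CT14, 194 and 220 at CT18, and 159 and 160 at CT22. In ΔRRE it was 236 and 166, 259 and 164, 222 and 228, 275 and 216, 233 and 184, and 157 and 162 FPKM at the same times. The CT22 libraries of both genotypes were among the lowest, and the fitted peaks were CT12.7 in WT (amplitude 0.25) and CT11.5 in ΔRRE (0.23). The call depended on the processing: Rps27 passed after rescaling of the libraries (adjusted p = 0.0412), and without ΔRRE CT2 replicate 1 (0.0272) or ΔRRE CT6 replicate 2 (0.0470), and its WT rhythm passed without WT CT6 replicate 2 (0.0420). Nearly all of its sequence is shared with other transcripts, as noted above.

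Among the next in order were Rps18 (adjusted p = 0.116), Rpl10a (0.15) and Rpl10 (0.160), all in limma's joint test. The largest fitted amplitudes in WT were those of Rps27a (0.37), Rpl29 (0.32) and Rps4l (0.31), and in ΔRRE those of Rps4l (0.40), Rpl29 (0.33) and Rps27a (0.27), with adjusted p from 0.198 to 0.672.

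**Figure D2:**
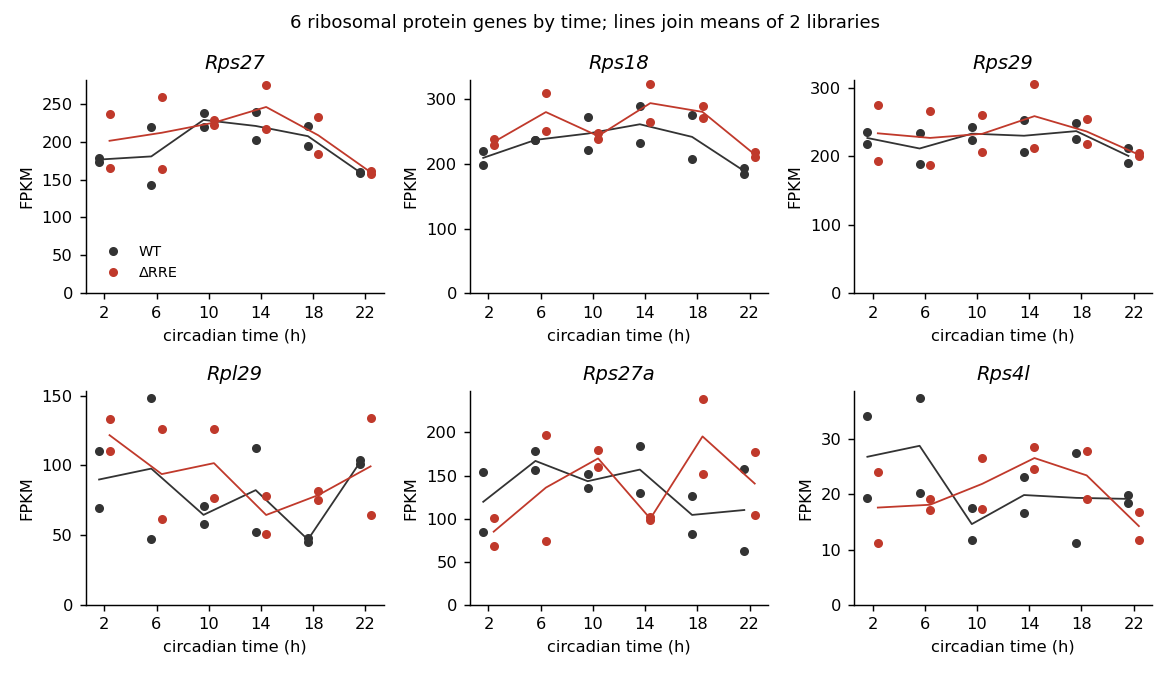
FPKM of 6 ribosomal protein genes against circadian time (h) in WT (dark) and ΔRRE (red), with 1 point per library and lines through the means of 2. The paired points of Rpl29, Rps27a and Rps4l lie far apart at several times, and those of Rps27 and Rps29 do so at CT6 in ΔRRE.

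No member differed between the genotypes in its rhythm (0 of 80, smallest adjusted p = 0.9999, limma; background 0.00889%), and 1 member, Rps4l, had an unadjusted p under 0.05 (background 2.84%). As a description, without a test, the fitted peaks of these waves, none of them called, lay at a median of CT9.38 in WT, where 49 of 80 fell between CT8 and CT12 (18.6% of all genes), and CT15.5 in ΔRRE, where 37 fell between CT12 and CT16 (15.9% of all genes) and 30 between CT16 and CT20 (16.8%). The highest time-point mean was at CT10 for 26 members in WT and at CT14 for 44 in ΔRRE. Only 1 member in WT and 0 in ΔRRE had its highest mean at CT22. The members moved together between libraries, as described below, so neither the 80 peaks nor these highest means are independent readings. An offset shared by the members in a single library moves many of their peaks at once. The counts therefore cannot be read as replicates of a peak time. Whether the median peak differed between the genotypes was not tested, nor was the part of single libraries in it.

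Averaged over the day, no member differed between ΔRRE and WT (0 of 80 higher or lower, smallest adjusted p = 0.441, limma; background 0% of all genes). At an unadjusted p under 0.05, 11 members were higher (background 7.16%) and 0 lower (background 1.75%). The count of 11 rested on single libraries: it was 31 without ΔRRE CT6 replicate 2 and 20 without WT CT6 replicate 1, and 5 or 6 in 12 of the 24 fits that left out 1 library. Those 12 left out in turn, in WT, replicate 1 of CT18 and CT22 and replicate 2 of CT2, CT6 and CT14, and, in ΔRRE, replicate 1 of CT2, CT6 and CT14 and either replicate of CT18 and CT22. The share of all genes at this p was not counted in the alternative fits. The background of 7.16% therefore belongs to the main fit only. The estimates leaned to one side: 75 of 80 were above 0, against 65.5% of all genes, and their median was 0.083 on the log2 scale, against 0.037 for all genes. With libraries brought to a common scale (median of ratios to their geometric mean), 63 of 80 were above 0, with a median of 0.042 against −0.0033, and 5 had an unadjusted p under 0.05. Subunits were alike, with medians of 0.084 (40S) and 0.083 (60S).

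The 95% intervals bound what could have been missed. For all 80 members the interval excluded a 1.5-fold fall, and for 79 a 1.5-fold rise, the exception being Rpl29 (difference 0.25, interval −0.16 to 0.66). Other members with large positive differences were Rps18 (0.16, interval 0.036 to 0.28) and Rpl13a (0.16, 0.0014 to 0.32). The largest negative ones were Rps25 (−0.061, −0.36 to 0.24), Rps4l (−0.050, −0.45 to 0.35), Rps28 (−0.017, −0.17 to 0.14) and Rps2 (−0.014, −0.16 to 0.13). Leaving out single libraries turned the sign of each of these 4.

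**Figure D3:**
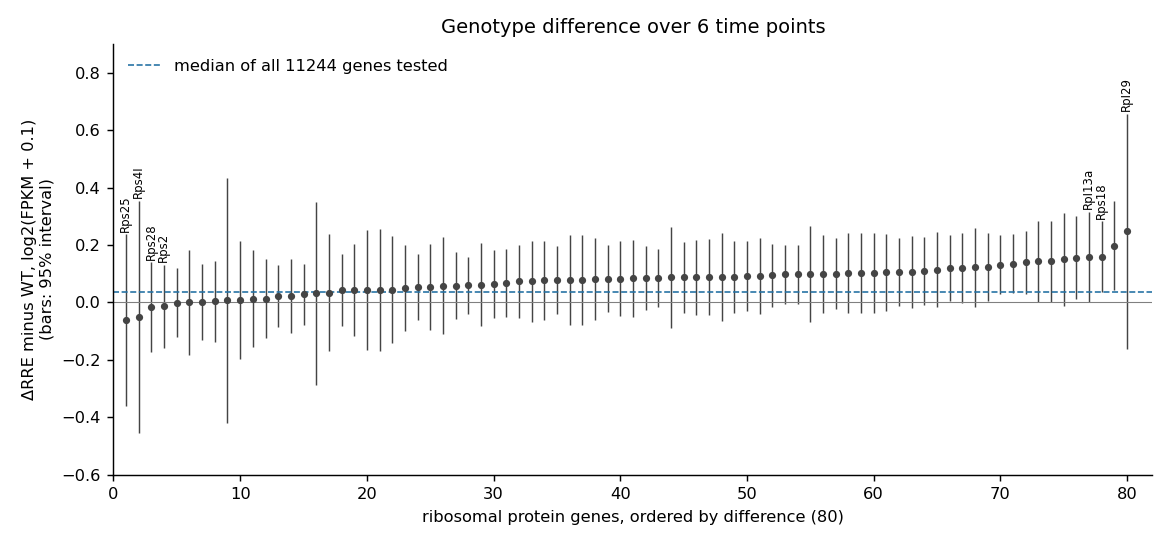
Difference between ΔRRE and WT over the 6 time points (log2 scale) for each of the 80 genes, ordered by size, with 95% intervals; the dashed line is the median of all 11244 genes, 0.037. Most points lie a little above 0, most intervals cover 0, and Rpl29 has the highest point.

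Members with textbook roles beyond assembly gave values within this range. Rplp0, the scaffold of the ribosomal stalk, had the smallest genotype p of the members: WT libraries ran from 207 to 261 FPKM (median 235, n = 12) and ΔRRE libraries from 232 to 296 FPKM (median 246, n = 12), a difference of 0.14 (standard error 0.050, adjusted p = 0.441, limma). Its groups overlapped. Rplp1 and Rplp2, the acidic stalk proteins, differed by 0.12 and 0.085 (adjusted p = 0.537 and 0.685). Rps6, the subunit protein that S6 kinase phosphorylates, read 205 to 279 FPKM in WT (median 252) and 235 to 308 FPKM in ΔRRE (median 271), a difference of 0.13 (adjusted p = 0.454). Rpl5 and Rpl11, which bind the 5S rRNA, differed by 0.11 and 0.044 (adjusted p = 0.604 and 0.943), and Rpsa by 0.10 (adjusted p = 0.689).

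At single time points no member passed either (0 of 80 over the 6 contrasts, smallest adjusted p = 0.857, limma, background 0.0534%). An unadjusted p under 0.05 was found in 3 of 480 tests: Rplp0 and Rpl26 at CT14 and Rps12 at CT22, the last 2 named after their values were seen. Per time this was 0% to 2.5% of the members, against 2.57% to 6.16% of all genes. The direction of the estimates changed with time. The median difference was 0.041 at CT2 (all genes 0.046), 0.0036 at CT6 (0.018) and −0.024 at CT10 (0.0042). It was 0.15 at CT14 (0.045), 0.16 at CT18 (0.089) and 0.19 at CT22 (0.030). Thus the members stood above all genes in the later 3 times, and so did lists like them. Those lists are not separate readings, since their genes partly overlap and the pseudogenes share sequence with the members. At CT14, CT18 and CT22 the medians were 0.157, 0.165 and 0.144 for other mRNAs with a known TOP motif. They were 0.157, 0.165 and 0.171 for elongation factors and 0.147, 0.154 and 0.184 for ribosomal protein pseudogenes. Mitochondrial ribosomal protein genes had 0.097, 0.093 and 0.10. Genes of initiation, ribosome biogenesis, mTORC1 signalling and the respiratory chain stood above all genes at only some of these times.

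Counted by libraries that do not overlap, both ΔRRE libraries exceeded both WT libraries for 14 members at CT14 (background 17.4%), 44 at CT18 (background 24.5%) and 49 at CT22 (background 21.7%). Both lay below for 17 members at CT10 (background 15.4%). Without the annotated pseudogenes the first 2 counts were 12 and 43, and the others did not change. After rescaling, the first 3 counts were 17 (14.4% of all genes), 22 (14.6%) and 49 (18.7%), the count below at CT10 fell from 17 to 9 (16.3% of all genes), and the medians of the 3 later times were 0.10, 0.058 and 0.16, so the CT18 value fell with the scale while that of CT22 moved less. Opposite differences without overlap at 2 or more times were seen for 22 of 80 members (background 33.0%). The most common such pair, above at CT22 and below at CT10, held for 13 members, and above at CT18 and below at CT10 for 9. Shares of all genes were not counted for single pairs of times, so these counts have no background and are a description only. Rpl11 was the 1 member above at CT22 and below at CT2. Its values at CT22 were 199 and 169 FPKM in WT and 232 and 229 FPKM in ΔRRE, whereas at CT2 they were 256 and 211 FPKM in WT and 193 and 180 FPKM in ΔRRE.

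**Figure D4:**
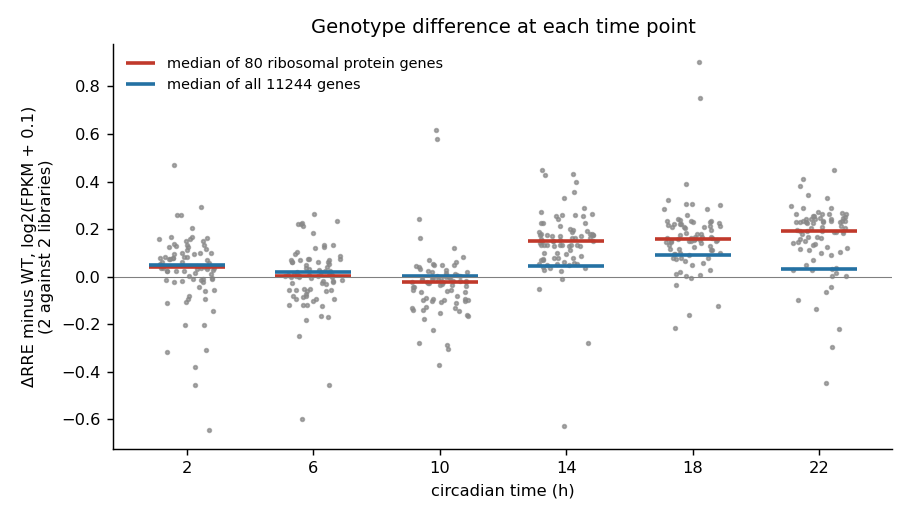
Difference between ΔRRE and WT at each circadian time (h) for each of the 80 ribosomal protein genes (grey points; log2 scale, 2 against 2 libraries), with the median of the members in red and of all 11244 genes in blue. The red bars lie near 0 from CT2 to CT10 and between 0.15 and 0.19 from CT14 to CT22.

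The members moved together between replicates, so they are not independent readings of a time point. In 9 of 12 pairs of replicates, at least 75% of the members were higher in the same library, with a median over the pairs of 88.1%, against 56.8% for all genes, for which no pair reached 75%. Other lists did this too: the nuclear genes of the respiratory chain in 10 of 12 pairs (median 81.2%), ribosomal protein pseudogenes in 6 of 12 (73.9%) and mitochondrial ribosomal protein genes in 3 of 12 (64.1%). In ΔRRE at CT6, 77 of 80 members were higher in one library, by a median of 0.40 on the log2 scale. Both subunits took part, with medians of 0.24 (40S) and 0.16 (60S) relative to each gene's mean in that library and −0.25 and −0.20 in its replicate. This ΔRRE CT6 gap was the widest of the 12 pairs and exceeded the median genotype difference at any time. At CT2, CT6 and CT14 the gaps of both genotypes exceeded the genotype difference of that time. At CT10 only the ΔRRE gap did. At CT18 and CT22 both gaps were smaller. Replicate 1 minus replicate 2, as the member median, was −0.13 (WT) and 0.10 (ΔRRE) at CT18, against a genotype difference of 0.16. At CT22 it was −0.15 (WT) and 0.023 (ΔRRE), against 0.19.

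Summed over a library, the members made up 1.89% to 2.67% of all FPKM in WT (median 2.29%, n = 12) and 2.07% to 2.93% in ΔRRE (median 2.44%, n = 12). The median of the members relative to their means was −0.038 ± 0.12 in WT and 0.042 ± 0.13 in ΔRRE (SD, n = 12 libraries each). These SDs describe single libraries and include the spread over the time points. Estimated from the spread between replicates, the standard error of the difference between the genotype means was 0.056. That difference was not tested. The lowest library was WT CT22 replicate 1 (−0.29) and the highest ΔRRE CT14 replicate 1 (0.26). Without the first, the median difference at CT22 was 0.11, and with any 1 library of that time left out 64 to 74 members stayed above 0. At CT14 the median rested on single libraries: it was 0.28 without ΔRRE replicate 2 and 0.27 without WT replicate 1, but 0.028 without ΔRRE replicate 1 and 0.021 without WT replicate 2, with 46 to 78 members above 0. At CT2 and CT6 leaving out 1 library turned its sign (−0.055 to 0.13 and −0.19 to 0.20). At CT22 the 2 WT libraries stood at −0.29 and −0.13 and the 2 ΔRRE libraries at −0.0074 and −0.047, without overlap.

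**Figure D5:**
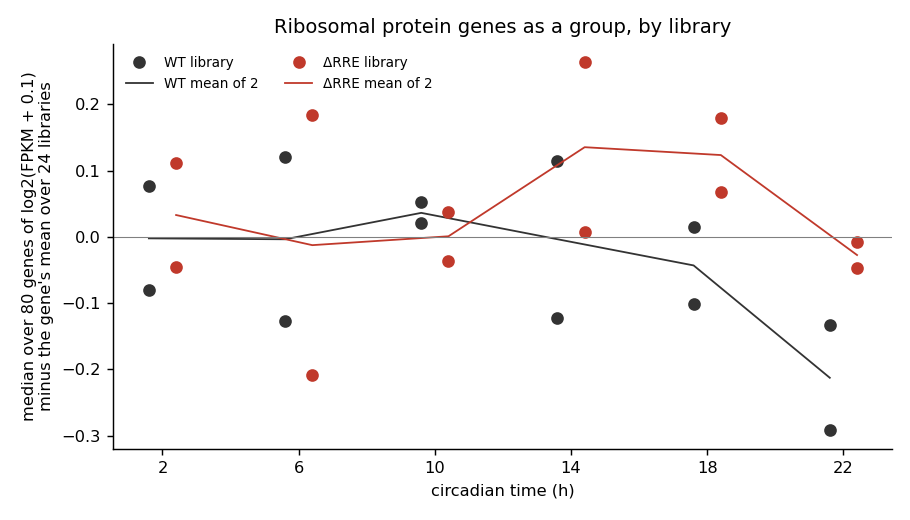
Median over the 80 ribosomal protein genes of log2(FPKM + 0.1) relative to each gene's mean over 24 libraries, by circadian time (h), with 1 point per library and lines through the means of 2. Replicates of CT6 and CT14 lie far apart, and only at CT18 and CT22 do both ΔRRE libraries lie above both WT libraries.

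Other signals of these libraries stand beside these values. Pseudogenes with ribosomal protein names summed to 1118 FPKM in WT CT22 replicate 1, their lowest value, and 1662 FPKM in ΔRRE CT14 replicate 1, their highest. Blood-cell markers (6 of 7 genes above 1 FPKM, none at 0) summed to 466 to 1538 FPKM in WT and 540 to 4462 FPKM in ΔRRE, with the highest ΔRRE value in CT14 replicate 1 and the highest WT value in CT22 replicate 1. All 6 tested were higher in ΔRRE, by a median of 0.70 on the log2 scale, and 5 had an unadjusted p under 0.05 (background 7.16% of all genes higher, 0 by adjusted p, limma). Their median difference was 1.83 at CT14, where 6 of 6 had both ΔRRE libraries above both WT libraries (background 17.4%). The blood-marker median was 1.34 at CT18 (5 of 6, background 24.5%) and 0.13 at CT22 (1 of 6, background 21.7%). mRNAs of the mitochondrial genome (13 of 13 above 1 FPKM) were at 60900 FPKM in ΔRRE CT14 replicate 1 and 92173 FPKM in WT CT22 replicate 1, within 60111 to 106154 FPKM over all libraries, and all 13 were lower in ΔRRE, by a median of 0.17 in log2 units. Their part in the members' values was not tested. In bulk tissue, fewer cells of a type and less RNA per cell cannot be told apart.

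Other cell types gave sums that overlapped between WT and ΔRRE. Kupffer-cell markers (10 of 10 genes above 1 FPKM) summed to 24.9 to 141 FPKM in WT, lowest in CT22 replicate 1, and to 50.3 to 120 FPKM in ΔRRE. At CT22 all 10 were higher in ΔRRE (median difference 0.85 on the log2 scale, 3 without overlap of the libraries, background 21.7%). The WT sums at that time lay far apart, at 24.9 and 77.1 FPKM. At CT2 0 of 10 were higher (median −0.74, 7 below without overlap, against 1230 of all 11244 genes). The part of these markers in the members' values was not tested. Sinusoidal endothelial markers (8 of 8) summed to 32.6 to 69.1 and 35.3 to 67.1 FPKM, stellate-cell markers (7 of 8) to 51.4 to 127 and 48.5 to 112 FPKM, and cholangiocyte markers (3 of 6) to 20.2 to 42.2 and 11.9 to 44.1 FPKM. Lymphocyte markers (1 of 10) stayed at 1.78 to 14.6 and 3.10 to 9.26 FPKM, markers of proliferation (0 of 5) under 5.59 and 3.09 FPKM, and nuclear RNAs (3 of 4) at 65.8 to 130 and 54.2 to 109 FPKM. No gene of these lists was at 0 in every library.

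Other genes of protein synthesis, from lists chosen with earlier results known, were set beside the members. Of the 6 ribosomal proteins with other names, 0 had a joint rhythm, and 5 had a positive genotype estimate (median 0.073). Rps3a1 had the smallest genotype p (difference 0.12, adjusted p = 0.575) and Rpl22l1 the smallest joint p (adjusted p = 0.0884). Of 7 elongation factors 0 were jointly rhythmic, 6 estimates were positive and the median was 0.083. Eef2, the translocase, differed by 0.17 (adjusted p = 0.416). Of 21 other mRNAs with a known TOP motif, 1 was jointly rhythmic, the initiation factor Eif4b (adjusted p = 0.00612), and 20 estimates were positive (median 0.11).

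The lists of genes that act before or on the ribosome held genes called for a joint rhythm, to be read beside the background of 18.7% of all genes. Of 38 initiation factors 6 had a joint rhythm (15.8%), with Eif2a at an adjusted p of 0.000677 in limma's test. Their median ratio of highest to lowest mean was 1.23 in WT and 1.28 in ΔRRE, against 1.23 and 1.18 for the members. Of 23 tested genes of mTORC1 signalling and TOP translation 8 did (34.8%), led by Larp1, the TOP-binding repressor (adjusted p = 0.000401, limma), with a fitted peak at CT23.1 in WT and CT0.132 in ΔRRE. Of 50 genes of ribosome biogenesis and RNA polymerase I 9 did (18.0%), led by Utp14a (adjusted p = 0.00466), and their median ratio of highest to lowest mean was 1.71 in WT, against 1.23 for the members. Mitochondrial ribosomal protein genes, which encode the other ribosome of the cell, had 10 of 78 with a joint rhythm (12.8%), and the nuclear genes of the respiratory chain 1 of 77 (1.3%). For the respiratory chain the median ratio of highest to lowest mean was 1.19 in WT and 1.15 in ΔRRE. Some genes stand on more than 1 list. For none of these lists was a gene called for genotype, and differences between lists were not tested.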

How the data were processed

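Poly(A) RNA of 24 livers was sequenced in directional, paired-end libraries. The submitters' notes name Trimmomatic 0.39, HISAT2 2.1.0, StringTie 1.3.5 and mm10, without parameters. The authors deposited FPKM per gene and library, without pooling; FPKM are relative to each library's mapped fragments and do not sum to a common total. Read counts were not used here, so no count test was run.

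Members and gene lists were chosen with earlier results of these data known. The deposited FPKM of genes averaging at least 1 FPKM (11244 genes) were put on the log2(FPKM + 0.1) scale. limma 3.58.1 (R 4.3.3) was used with its prior trended on intensity, p-values were adjusted over all genes (Benjamini-Hochberg), and an adjusted p under 0.05 was called. Rhythms (cosine and sine, 24 h) were tested per genotype, jointly and as a difference. Genotype was tested with time point as a factor and at each of the 6 time points. The steps were tested on simulated data.

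Named were the 5 highest and 5 lowest members, the 4 largest differences each way, the 5 smallest joint p, the 3 largest amplitudes per genotype, members meeting the study's criteria, and members with known roles or paralogs. Some genes that this rule takes are not reported here. Start sequences and shared stretches of 50 bases came from RefSeq GRCm38.p6 and GENCODE M21, in which 54528 of 54733 identifiers were found. Python 3.11.15, NumPy 2.4.6 and matplotlib 3.10.9 were used. Replicate numbers were not used to pair the genotypes in the main fits.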

Additional observations from a re-analysis of the deposited data

Results flagged for a closer look

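With 2 libraries per group, no library could be tested as an outlier of its group. Among the members named in the text, 9 had both ΔRRE libraries above both WT libraries at one time and both below at another. This condition only picked them for listing here. The difference between 2 times was not tested for these pairs, and the test for a difference in rhythm called 0 of the 80 members. The same condition was met by 22 of the 80 members and by 33.0% of all genes. On the log2 scale, ΔRRE minus WT was 0.20 at CT22 and −0.12 at CT6 for Rpl10, and 0.33 at CT22 and −0.32 at CT2 for Rpl11. For Rplp0 it was 0.29 at CT14 and −0.018 at CT10, and for Rps15 0.21 at CT18 and −0.13 at CT10. Rpl26 had 0.45 at CT14 and −0.37 at CT10, and Rpl35a 0.098 at CT22 and −0.020 at CT10. Rps27a had 0.90 at CT18 and −0.63 at CT14. The annotated pseudogenes had 0.33 at CT14 and −0.38 at CT2 (Rpl6l), and 0.43 at CT14 and −0.60 at CT6 (Rps4l).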

How the results depend on the processing

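Counts of members called for genotype, for single times, for a rhythm difference and for a rhythm in ΔRRE by adjusted p stayed at 0 under every alternative run (constants of 1 and 0.01 FPKM, a mean of at least 5 FPKM or no filter, rescaled libraries, a prior without trend, a replicate block, and leaving out each library). Members with a joint rhythm rose from 0 to 1 (Rps27) after rescaling and with the replicate number as a block, which also raised members higher at an unadjusted p under 0.05 from 11 to 18 (7 with a prior without trend), and ranged from 0 to 1 over the 24 fits that each left out 1 library. The share of all genes at this unadjusted p was not counted in these alternatives. Over all genes, the replicate 1 minus replicate 2 differences of the 2 genotypes correlated between −0.12 and 0.21 at the 6 times. Replicate 1 was the higher library for 73, 77, 51, 74, 65 and 49 of 80 members in ΔRRE, from CT2 to CT22. In WT it was so for 70, 73, 32, 77, 20 and 9. Whether same-numbered libraries share a source of variation in the members was not tested. Rhythm in WT by adjusted p ranged from 0 to 1 when libraries were left out (1 without WT CT6 replicate 2). With the study's criteria the 2 WT members became 1 with no filter, 1 after rescaling, 1 without the pseudogenes and 0 with time as a factor, and ranged from 1 to 4 when libraries were left out, and the 4 in ΔRRE ranged from 3 to 8, the highest counts without ΔRRE CT6 replicate 1 or CT14 replicate 2. The alternatives of the pseudogenes and of the single-time medians were chosen after seeing the data. The median genotype difference stayed positive, at 0.042 to 0.084 over the other alternatives and 0.062 to 0.11 without single libraries, but the median at CT6 ran from −0.19 to 0.20. The cause was not tested.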
